A study of Mus musculus with 8 samples.

Results

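The first 5 Mb of sequence at the centromere end of mouse autosomes was described in 6 lists of H2A.X domains from mouse embryonic stem (ES) cells. On mm9 this window runs from the base after position 3000000, taken here as the first with sequence, to position 8000000 of a chromosome. It was taken on 16 autosomes, chromosomes 1 to 19 without 6, 8 and 11. A domain belonged to the window if it overlapped it, and was clipped to it. It was left out of the members if it ended at or before position 3001000, which removed 3 domains. This gave 973 of the 19928 domains that the lists hold on the 16 autosomes, and of 25499 on all chromosomes. The windows made up 80.0 Mb, or 3.96% of the 16 autosomes after position 3000000. By list, with its domains on all chromosomes, 128 of 4130 came from that of DNMT1 and 416 of 10620 from that of 2i and serum. The list of PKCi and 2i gave 126 of 3220, that of SRCi and 2i 170 of 3760, that of TDG 60 of 1385 and that of TKO 73 of 2384.

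H2A.X was measured by native chromatin immunoprecipitation and sequencing of 8 libraries, using 0.5 µg of antibody per immunoprecipitation. Of the strain 129S6/C57B6 there were serum-grown cells without DNMT1 (DNMT1 KO, a knockout) and wild-type cells of 3 media, named 2i, PKCi and SRCi. Of the strain 129/Ola there were TDG KD (a knockdown, genotype Tdg KD), TDG control (genotype WT), TKO and TKO control (genotype WT), each grown in serum. The meaning of TKO is not stated in the labels. The serum medium was supplemented with 15% fetal bovine serum, PKCi medium with 5 µM Gö6976, a protein kinase C inhibitor, and SRCi medium with the Src inhibitor CGP77675 at 1.5 µM plus the GSK3 inhibitor CHIR99021 at 3 µM. The 2i medium was a commercial kit. Serum, PKCi and SRCi media contained the cytokine LIF. Every condition had 1 library, so differences between conditions could not be checked against replicates, and no control is stated to share a clone with its mutant. The serum wild-type and DNMT1 control libraries enter only through their lists, and whether they are the same cells is not given in the sources used here. Read depth is unknown, and the lists hold no gene values by which the cell type could be checked.

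H2A.X is the histone H2A variant that is phosphorylated around DNA breaks, and the antibody here is labelled as one to H2A.X itself. Mouse autosomes carry their centromere at one end, next to the lowest positions. The centromere is built on minor satellite repeats and is flanked by heterochromatin of major satellite repeats, which the assembly represents only by a placeholder without sequence. Satellite DNA is heavily methylated in most cells, DNMT1 maintains that methylation through cell division, and ES cells in 2i medium are known to lose much of their DNA methylation. TDG is a DNA glycosylase that removes oxidised methylcytosine. The window is thus the nearest sequence to the centromere that these lists can show. The lists' grid gives the placeholder to positions 1 to 3000000. Gaps in the sequence after that position were not looked up, so the window may hold some.

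Each list sets a pair of libraries against each other and marks each domain as enriched in one of them, which is called its side here. Which library a mark stands for was taken from the order of the names each list carries, and every direction given below rests on that order. In every list one side covers much less of the 16 autosomes than the other. These smaller sides are DNMT1 KO, 2i over serum, 2i over PKCi, 2i over SRCi, TDG control and TKO. They covered 73.2, 99.7, 6.06, 6.24, 5.96 and 8.56 Mb, and the opposite, larger sides 915, 663, 1703, 1738, 579 and 462 Mb. The smaller side is the mutant in the DNMT1 and TKO lists, the control in that of TDG and 2i in the other 3, so it is not the same kind of sample throughout. With 1 library per condition the values below are descriptions, with no p-value. Coverage is the percentage of bases that lie in domains of a side. The rest means the same 16 autosomes beyond position 8000000.

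The window as a whole was covered less by every larger side than the rest was, and more by every smaller side. TDG KD domains showed the widest gap among the larger sides, at 12.4% of the window against 29.3% of the rest, a ratio of 0.422. The DNMT1 control side covered 30.7% of the window against 45.9% of the rest, the serum side 23.1% against 33.2%, and the TKO control side 15.3% against 23.2%. The PKCi side covered 76.9% against 84.6% and the SRCi side 77.7% against 86.3%. Among the smaller sides TDG control covered 0.796% of the window against 0.274% of the rest, a ratio of 2.91, and TKO 1.02% against 0.399%, a ratio of 2.56. The 2i side covered 0.654% against 0.295% in the list with SRCi and 0.546% against 0.290% in the list with PKCi. DNMT1 KO, at 4.27% against 3.59%, and 2i over serum, at 5.49% against 4.91%, were close to the rest. Over the 1 kb bins of the 16 autosomes, the background for these shares was 3.62% on the DNMT1 KO side and 45.3% on its control side, 4.93% for 2i and 32.8% for serum, 84.3% for PKCi and 0.300% for 2i against it, 86.0% for SRCi and 0.309% for 2i against it, 28.6% for TDG KD and 0.295% for its control, and 0.423% for TKO and 22.9% for its control.

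**Figure D1:**
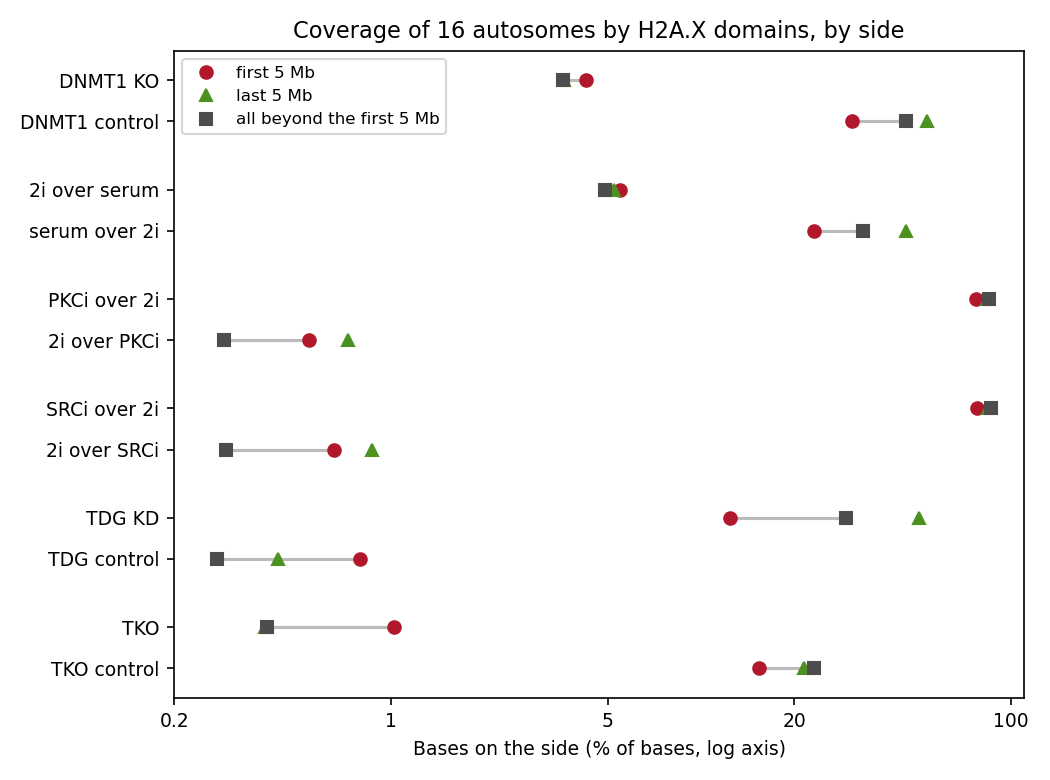
Percentage of bases of 16 autosomes on each side of the 6 lists (log axis), for the first 5 Mb (circles), the last 5 Mb (triangles) and all beyond the first 5 Mb (squares), with a grey line from the first to the third. The circle lies left of the square for the 6 larger sides, as for TDG KD at 12.4% against 29.3%, and right of it for the 6 smaller sides, as for TDG control at 0.796% against 0.274%.

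These pooled values rest on chromosomes that differ widely. The window was covered more than the rest of its own chromosome on 7 of 16 chromosomes for DNMT1 KO and on 7 for 2i over serum, and for DNMT1 KO the pooled ratio of 1.19 turned to 0.844 when the first 10 Mb was taken in place of 5 Mb. It was covered more on 11 chromosomes for TDG control, 8 for TKO, 6 for 2i over SRCi and 5 for 2i over PKCi. The 2i sides against PKCi and SRCi reached the window on 8 and 7 chromosomes. For the larger sides the window exceeded its own chromosome on 3 chromosomes for TDG KD, 3 for TKO control, 4 for DNMT1 control, 2 for serum, 6 for PKCi and 5 for SRCi.

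Within the window, the excess of the smaller sides lay in the first 1 Mb. There TDG control covered 3.27%, 11.9 times the rest, and TKO covered 4.49%, 11.3 times the rest. The 2i side covered 2.54% in the list with SRCi, 8.62 times the rest, and 2.14% in the list with PKCi, 7.40 times. DNMT1 KO covered 10.3% of the first 1 Mb and 2i over serum 9.91%, which is 2.87 and 2.02 times the rest. The Wilson 95% intervals of these coverages over 1 kb bins were 3.00% to 3.56% for TDG control, 4.18% to 4.82% for TKO and 9.87% to 10.8% for DNMT1 KO; they cover counting error only and take neighbouring bins as independent, which they are not. From 1 to 5 Mb every smaller side was below the rest, with 0.178% for TDG control, 0.156% for TKO, 0.183% and 0.147% for 2i over SRCi and PKCi, 2.75% for DNMT1 KO and 4.39% for 2i over serum. The first 1 Mb held 87.8% of the TKO bases of the window, 82.1% of those of TDG control, 78.5% and 77.6% of those of 2i over PKCi and SRCi, 48.4% of those of DNMT1 KO and 36.1% of those of 2i over serum.

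The 6 smaller sides also had more domain starts per Mb in the first 1 Mb than in the rest, and so did the 6 larger sides, which covered less there, with 1.81 against 1.15 per Mb for PKCi. From 1 to 5 Mb, where the smaller sides covered less than in the rest, TDG control and the 2i sides of the 3 lists still had more starts per Mb than the rest, and DNMT1 KO and TKO fewer. TDG control domains started at 1.38 per Mb in the first 1 Mb, against 0.234 per Mb from 1 to 5 Mb and 0.169 per Mb in the rest. TKO domains started at 0.688, 0.0781 and 0.0999 per Mb in these stretches, and DNMT1 KO domains at 1.62, 0.516 and 0.598 per Mb. TKO domains of the first 1 Mb were also longer than those of the rest, with medians of 40 kb for 11 domains and 16 kb for 194 domains. For TDG control the medians were 13 kb for 22 domains and 7 kb for 329. For DNMT1 KO they were 54.5 kb for 26 domains and 44 kb for 1160, and for 2i over serum 13 kb for 66 and 11 kb for 4108.

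Taken per 1 Mb of sequence, few places of the rest reached the first 1 Mb's coverage by TKO, TDG control and 2i over SRCi and PKCi. More reached that of DNMT1 KO and 2i over serum. Of the 1934 whole 1 Mb bins of the rest, 33 (1.71%) had at least the TKO coverage of the first 1 Mb, 43 (2.22%) at least that of TDG control, 39 (2.02%) and 49 (2.53%) at least that of 2i over SRCi and PKCi, 224 (11.6%) at least that of DNMT1 KO and 287 (14.8%) at least that of 2i over serum. The first value in each is a mean over 16 chromosomes and the second a single bin, so these are places in a distribution and not tests.

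**Figure D2:**
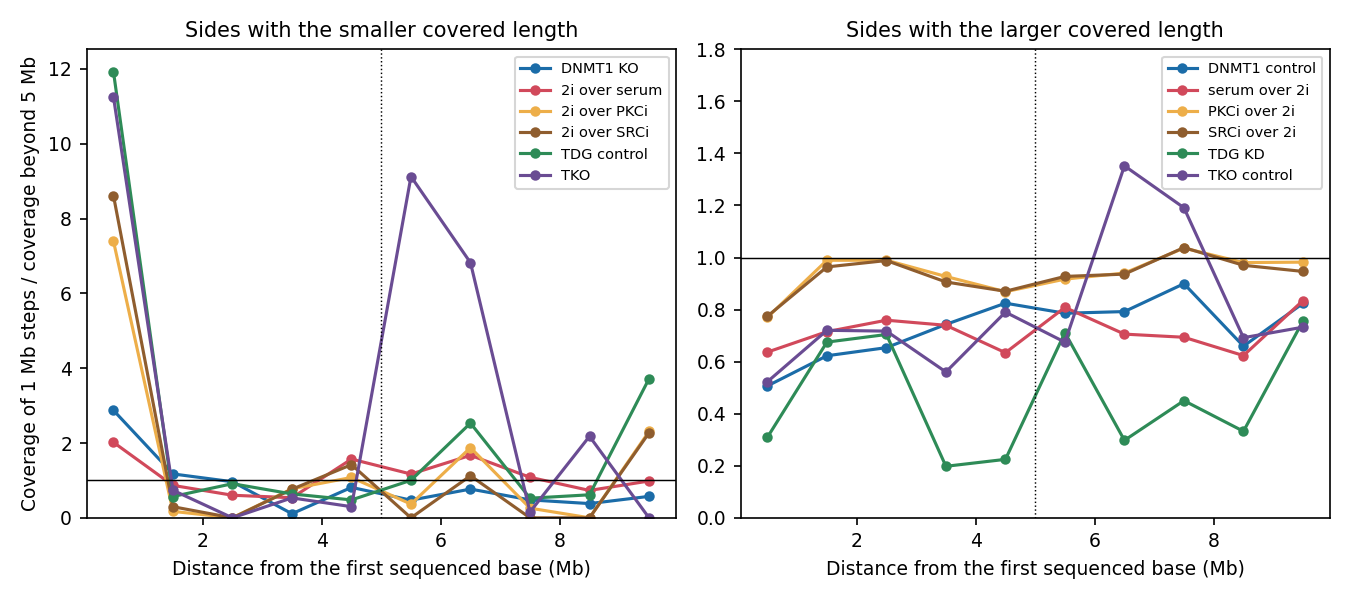
Coverage of successive 1 Mb steps over 16 autosomes, divided by coverage beyond the first 5 Mb, against distance from the first sequenced base, for the smaller sides (left) and the larger sides (right); the solid line marks equality and the dotted line the end of the window. The smaller sides are at 2.02 to 11.9 in the first step, and the larger sides at 0.309 to 0.774.

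The larger sides were low near the first base. DNMT1 control coverage was 23.2%, 28.6%, 30.0%, 34.1% and 37.8% in the 5 successive steps of 1 Mb. TDG KD covered 9.06% of the first step, more than its 6.58% of the fifth. In the first step TKO control covered 12.1%, serum 21.1%, PKCi 65.1% and SRCi 66.8%. In the first 100 kb the coverage was lower still, at 1.31% for TDG KD, 0.312% for TKO control, 8.25% for DNMT1 control, 10.1% for serum, 36.2% for PKCi and 37.6% for SRCi. The smaller sides were higher there than in any of the 5 steps, with 22.8% for DNMT1 KO, 22% for 2i over serum, 19.1% for TKO, 17% for TDG control, 16.1% for 2i over SRCi and 12.9% for 2i over PKCi. Pooled over the first 100 kb of the 16 chromosomes, DNMT1 KO and TKO thus covered more than their controls. So did 2i against serum and TDG control against TDG KD. The rest had the opposite order in these 4 lists. Few chromosomes carry this: DNMT1 KO and TDG control had domains there on 7, 2i over serum on 9 and TKO on 5. The 2i sides over SRCi and PKCi had them on 4 each. Of the 306 kb of TKO, chromosomes 17 and 18 held 100 kb each, and of the 272 kb of TDG control 66 and 100 kb. Without the first 100 kb, the ratio of the first 1 Mb to the rest moved by over 1.5 times for TDG control, to 6.36, for TKO, to 7.18, and for 2i over SRCi and PKCi, to 3.51 and 3.26. The ratio of the whole window then fell to 1.70 for TDG control, 1.64 for TKO, 1.15 for 2i over SRCi and 1.01 for 2i over PKCi. A further set kept the 50% of each side's domains that score most toward that side. With it the ratio of the first 1 Mb was 18.1 for TKO, 13.2 for 2i over PKCi, 4.94 for 2i over serum and 4.53 for DNMT1 KO. The ratio of the whole window was then 3.38 for 2i over PKCi, 1.86 for 2i over serum and 0.389 for serum.

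Just inside and just outside the end of the window, coverage was as follows. TDG control covered 0.131% of the last 1 Mb inside it and 0.275% of the first 1 Mb outside, DNMT1 KO 2.92% and 1.70%, and DNMT1 control 37.8% and 36.1%. TKO covered 0.119% inside, 3.64% outside and 2.72% of the next 1 Mb, against 0.399% of the rest. TKO coverage was thus high beyond the window too, and its ratio was 3.51 for the first 10 Mb against 2.56 for the window. TDG KD coverage was 6.58% inside and 20.8% outside.

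The first 1 Mb was not alike on the 16 chromosomes. On chromosomes 4, 13, 16, 17 and 18 the smaller sides of all 6 lists had domains there. On chromosomes 1, 2, 10 and 15 it was 2i over serum alone, and on chromosome 14 no list. DNMT1 KO covered 24.7% of the first 1 Mb of chromosome 4, its highest value. The 2i side over serum was highest on chromosome 4 too, at 29.3%, TKO on chromosome 13, at 22.8%, and TDG control on chromosome 18, at 12.1%. DNMT1 KO lay above the rest of its own chromosome in the first 1 Mb of 10 chromosomes, TDG control of 9, TKO and 2i over serum of 8, and 2i over PKCi and SRCi of 5 each. Leaving out each chromosome in turn kept the ratio above 1 for the 6 smaller sides. Its lowest values were 9.52 for TDG control without chromosome 18, 8.54 for TKO without chromosome 13, and 2.59 for DNMT1 KO without chromosome 4.

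**Figure D3:**
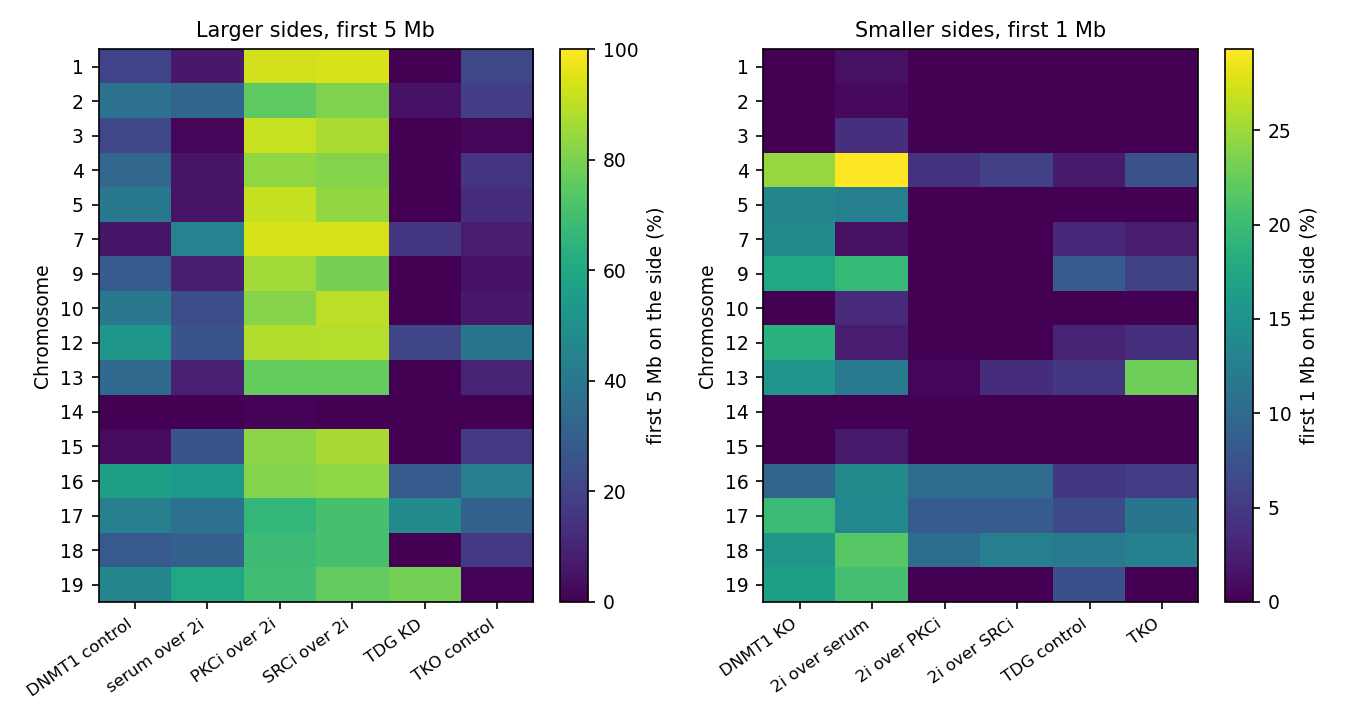
Percentage of the first 5 Mb on the larger sides (left) and of the first 1 Mb on the smaller sides (right), by chromosome and list. Chromosome 14 is near 0 in both panels, TDG KD is highest on chromosome 19 at 79.2%, and 2i over serum on chromosome 4 at 29.3%.

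Single stretches beside the first base were marked by the smaller sides of several lists. The longest with 4 or more lists was on chromosome 18, from the first sequenced base to 3113000, at 113 kb. The DNMT1 KO, TDG control and TKO domains there had the same edges, the first base and 3121000. The second was on chromosome 17, from the first base to 3085000, at 85 kb, where the DNMT1 KO domain ran on to 3200000 and the TKO domain to 3114000. The TDG control domain there was 3019001 to 3085000, and ended where the 2i domains against PKCi and SRCi ended. The third was chromosome 16, 3232001 to 3285000, at 53 kb. DNMT1 KO, TKO and the 2i sides of 3 lists had both of these edges, and the TDG control domain ran from 3232001 to 3273000. The sequence on both sides of it, from the first base to 3232000 and from 3285001 to 3455000, lay in no domain of any of the 6 lists. The 2i domains of these stretches come from 3 lists that may use 1 library, and are not separate results.

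**Figure D4:**
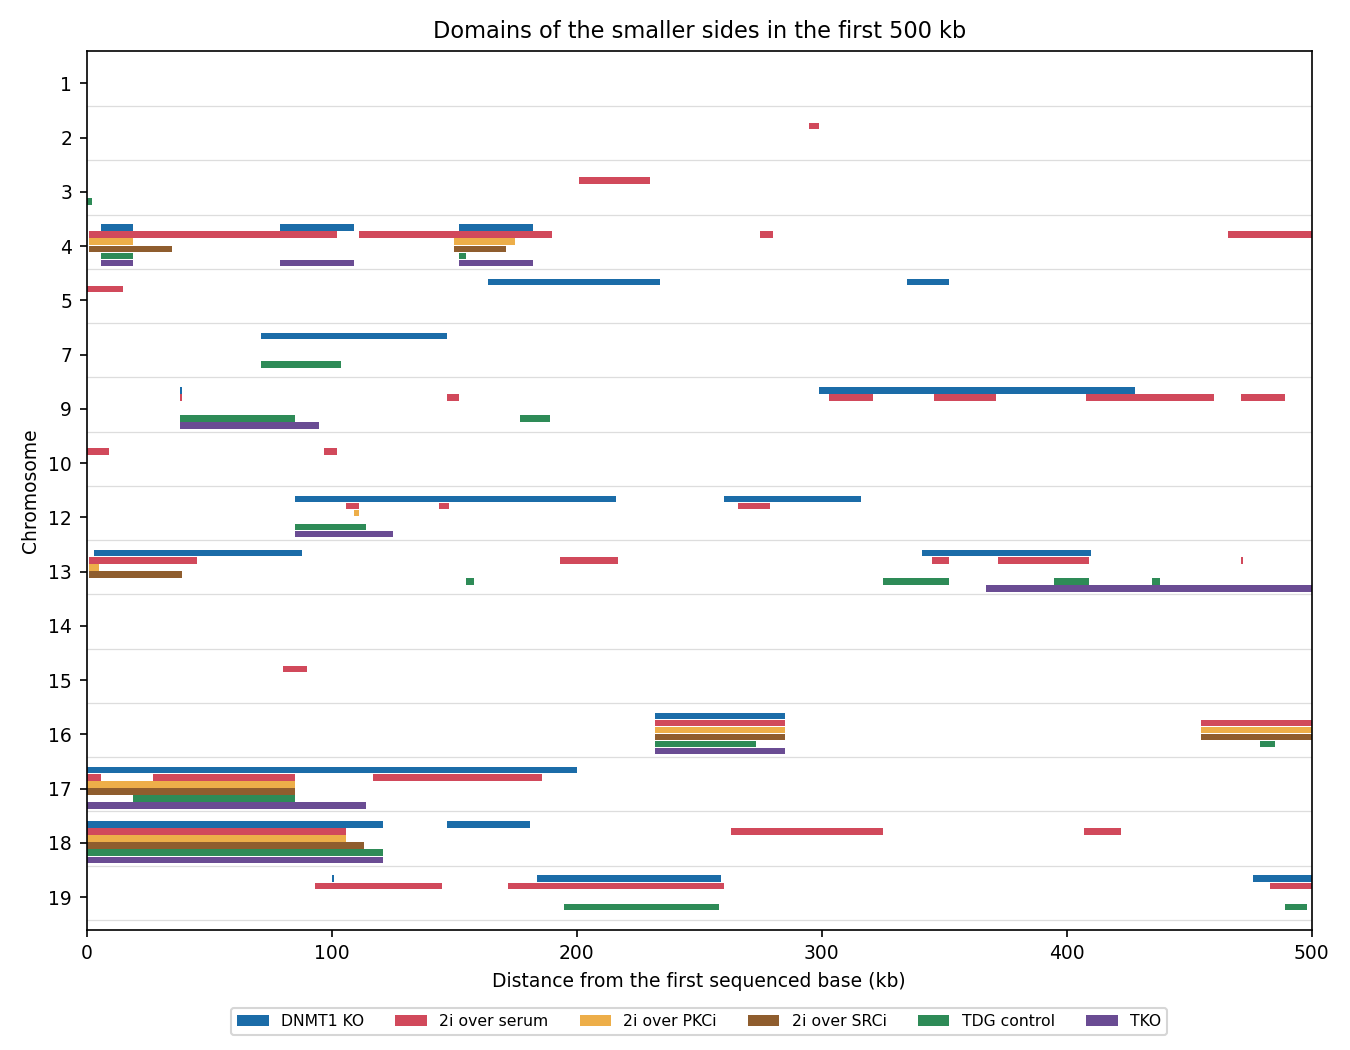
Domains of the smaller sides in the first 500 kb of sequence of 16 autosomes, by distance from the first base in kb; each chromosome has a row for each list, in the order of the legend. Bars of 4 or more lists stack on chromosomes 4, 9, 12, 13, 16, 17 and 18, for 1 kb only on chromosome 9. None is drawn on chromosomes 1 and 14.

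The authors' signed score has no stated unit, and in each list its median over domains of the first library is above that of the second, so that DNMT1 KO, TKO and 2i over serum have the lower scores of their lists, and TDG control and 2i over PKCi or SRCi the higher ones. Its sign does not mark the enriched library, since in the rest both sides of each of the 6 lists have medians of the same sign, as with -6.56 for DNMT1 KO and -2.59 for its control. On chromosome 18 the domain at the first base scored -14.5 in DNMT1 KO, where the quartiles of the side's domains in the rest were -7.55 and -6.06, and -8.68 in TKO, with quartiles of -7.75 and -3.55 in the rest. It scored 5.99 in TDG control, within the quartiles of the rest of 5.22 and 10.9. On chromosome 16 the shared domain scored -12.9 in DNMT1 KO, -41.3 in 2i over serum, 25.2 in 2i over SRCi, 18.5 in 2i over PKCi, 10.0 in TDG control and -6.88 in TKO.

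The most extreme scores of 3 sides on the 16 autosomes lay within 40 kb of the first base. The bin at chromosome 9, 3038001 to 3039000, had a DNMT1 KO score of -267, the first of 1219 domains, and a 2i over serum score of -183, the first of 4360. TDG control had its second score of 366 domains, 96.9, in a domain from the same position to 3056000, and a TKO domain from there to 3095000 scored -9.98. The PKCi and SRCi domains over 2i spanned that position from before the window to 3303000, so the 2i side did not hold it in those lists. The highest TDG control score, 163, was at chromosome 4, 3017001 to 3018000, within a stretch from 3006001 to 3019000 that the smaller sides of all 6 lists covered. DNMT1 KO scored -41.0 and TKO -15.1 in that stretch. Both of these top-ranked places are 1 kb long, and the lists give neither read counts nor mapping quality for them.

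Positions where several lists coincided were commoner in the window than in the rest by a factor that grew with the number of lists, from 2 lists upward. Bases on the smaller sides of at least 2 lists made up 2.16% of the window and 1.93% of the rest, a ratio of 1.12. At least 3 lists gave a ratio of 2.31, at least 4 lists 3.07 and at least 5 lists 4.61. All 6 coincided on 221 kb of the window in 5 stretches on 4 chromosomes, and on 462 kb of the rest, a ratio of 11.6. Of the bases with at least 4 lists, 91.6% were in the first 1 Mb, and those with all 6 lists lay entirely in it. The longest outside the first 1 Mb was chromosome 14, 6055001 to 6080000, with 5 lists, an island in a window that was otherwise nearly without domains. Since 3 of the lists name 2i, and their smaller sides are all 2i, these counts are not of 6 independent comparisons. Each smaller side also covered more of the window by itself, which alone can make the ratio grow with the number of lists. No expected ratio was computed, so the growth does not show that the lists coincide beyond their own coverage.

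The DNMT1, TDG and TKO lists name no condition in common and were compared directly. In the window 471 kb lay on both the DNMT1 KO and the TDG control side. That is 13.8% of DNMT1 KO and 73.9% of TDG control bases there, against 5.15% and 67.6% in the rest. DNMT1 KO and TKO shared 445 kb, 13.0% of DNMT1 KO and 54.4% of TKO, against 3.75% and 33.8% in the rest. TKO and TDG control shared 337 kb, 41.2% of TKO and 52.9% of TDG control, against 12.7% and 18.5% in the rest. The smaller sides thus met each other on larger shares of their bases in the window than beyond it. Each also covered more of the window, DNMT1 KO 4.27% against 3.59%, TDG control 0.796% against 0.274% and TKO 1.02% against 0.399%. Of the larger sides, DNMT1 control and TDG KD shared 19.9% of DNMT1 control and 49.6% of TDG KD bases, against 37.4% and 58.6% in the rest. DNMT1 control and TKO control shared 31.7% and 63.5%, against 32.0% and 63.3%. TDG KD and TKO control shared 17.8% and 14.3%, against 16.9% and 21.4%. These sides covered less of the window, DNMT1 control 30.7% against 45.9%, TDG KD 12.4% against 29.3% and TKO control 15.3% against 23.2%. A shared percentage depends on the coverage of the other side, and no expected value was computed. The shares therefore do not show whether any pair met beyond its own coverage.

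Larger sides were spread unevenly over chromosomes. TDG KD domains numbered 23 and met the window on 7 of the 16 chromosomes. The window of chromosome 19 was covered to 79.2%, the highest of that chromosome's successive 5 Mb windows, that of 17 to 48.0% and that of 16 to 28.4%. Chromosomes 12, 7, 2 and 4 had 20.8%, 16%, 4.98% and 0.6%. The longest TDG KD domain was chromosome 19, 3575001 to 6688000, at 3113 kb, with a score of 0.0219, near the lower quartile of the rest, 0.0317, on a scale that rises toward the control. Without chromosome 19 the TDG KD ratio of the window to the rest was 0.270 in place of 0.422.

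Serum domains were highest on the same chromosome, at 59.7% of the window of chromosome 19 against 24.4% of its rest, followed by chromosome 16 at 54.0% against 23.4%. They were under 10% on chromosomes 1, 3, 4, 5, 9, 13 and 14. DNMT1 control was highest on chromosome 16, at 56.7%, then 12, at 53.1%, and 3.08% and 0 on chromosomes 15 and 14. TKO control was also highest on chromosome 16, at 42.8%, where it exceeded the other 5 Mb windows of that chromosome, and covered 1.16% of the window of chromosome 19. So on chromosome 19 TDG KD and serum were high where TKO control was low, whereas chromosome 16 was above its own rest in the 4 larger sides that do not name PKCi or SRCi. The longest domains there were 5341001 to 8000000 for DNMT1 control, clipped at the window's end, 5392001 to 6198000 for serum, 4826001 to 5928000 for TDG KD and 5287001 to 6212000 for TKO control. The PKCi and SRCi sides were each highest on chromosome 7, at 94.0%. Their longest domains in the window were chromosome 5, 4085001 to 8000000, for PKCi and chromosome 16, 5076001 to 8000000, for SRCi, both clipped.

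Chromosome 14 stood apart from the other 15. Of its window 97.0% lay in no domain of any list, where the largest such share on another chromosome was 22.3%. The share of the window outside each list's own domains was 97.1% to 100%. By single list this was particular to chromosome 14 for PKCi and SRCi, where chromosome 17 came next at 32.2% and 27.4%. Other chromosomes were near it for DNMT1 (15, at 96.5%), 2i and serum (3, at 95.3%) and TKO (19, at 98.8%). For TDG, chromosomes 10 and 15 were at 100%, above its 99.5%. The PKCi and SRCi sides covered 0.840% and 0.180% of it, and 80.7% and 81.9% of the rest of the chromosome. DNMT1 control, TKO control, TKO and TDG KD covered none of it, and the serum side 0.06%. The other domains present were 2i over SRCi, at 2.20%, 2i over PKCi, at 1.76%, 2i over serum, at 2.84%, and DNMT1 KO and TDG control, at 0.500% each. The longest stretches without a domain in any list were 4519001 to 5981000, at 1462 kb, from the first base to 4285000, at 1285 kb, and 6084001 to 7315000, at 1231 kb. Chromosome 14 held 48.8% of the window's bases that no list covered. These made up 12.4% of the windows, 6.78% without chromosome 14, and 3.73% of the rest. Leaving out chromosome 14 brought the window ratio of PKCi to 0.966 and that of SRCi to 0.957, nearer to 1 than 0.909 and 0.901.

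More of the window than of the rest lay on neither side of a list. The share was 65.0% against 50.5% for DNMT1, 71.4% against 61.9% for 2i and serum, 22.6% against 15.1% for PKCi and 2i, 21.6% against 13.4% for SRCi and 2i, 86.8% against 70.4% for TDG, and 83.6% against 76.4% for TKO. In the first 100 kb it was higher than in the window for PKCi and 2i, at 50.9%, SRCi and 2i, at 46.4%, and DNMT1, at 69.0%, and lower for 2i and serum, at 67.9%, TDG, at 81.7%, and TKO, at 80.6%. The lists do not mark assembly gaps, and no genome of their build was used here.

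The placeholder before the window enters the domains at its edge. On the 16 autosomes 21 domains started at position 1, 7 each on the serum, PKCi and SRCi sides, and 12 of them were kept as members because they ran on into the window. The 3 left out as members ended in the first 1 kb, 1 on each of these sides. That 1 kb still counts in the coverage of its side. Another 18 members began at the first base of sequence, on 6 chromosomes. That the score of a domain that runs in covers the placeholder as well was inferred from the values, and is not stated in these sources. The PKCi domain of chromosome 2, 1 to 3068000, has 97.8% of its length before the window and a score of 0.134. Taken as a mean per bin and spread over its 68 kb of sequence, that score is 6.03, where PKCi domains within the window had a median of 5.07. On chromosome 1 the PKCi domain to 4697000 gave 2.03 as listed and 5.61 per kb of sequence, and the SRCi domain to 4147000 1.88 and 6.79. The serum domain of chromosome 9, to 3038000, stayed at 0.0263 per kb after this step. Serum domains within the window had a median of -7.65. The chromosome 9 domain ends where the most extreme DNMT1 KO score starts. Clipping at the first base kept the placeholder itself out of the coverage. The parts of such domains after it still count, as with 38 kb of serum on chromosome 9 and 29 kb on chromosome 3. The serum side held 161 kb in the first 100 kb of the 16 chromosomes together. Leaving out empty blocks was done for the ratio of the whole window only.

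Scores of members that start in the window were close to those of the rest for most sides. Their median was -6.53 against -6.56 for DNMT1 KO and -2.61 against -2.59 for DNMT1 control, -21.9 against -20.5 for 2i over serum and -7.65 against -7.59 for serum. It was 5.07 against 4.99 for PKCi and 6.19 against 6.15 for SRCi. It was -4.25 against -4.46 for TKO, 8.22 against 7.46 for TDG control and -0.485 against -0.592 for TKO control. The largest shift relative to the quartiles was in 2i over PKCi, with a median of 22.9 for 16 domains against 16.3 in the rest. The upper quartile of the rest was 22.6. Its 8 domains of the first 1 Mb had a median of 18.2, and its 8 from 1 to 5 Mb one of 27.0. TDG KD members had a median of 0.0981 against 0.290, a shift away from the control, with quartiles of -0.315 and 0.293 against 0.0317 and 0.445.

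The last 5 Mb of the same chromosomes lie at the telomere end. They differed from the first 5 Mb by more percentage points in the larger sides, which cover more everywhere, than in the smaller ones. As a ratio to the rest, TKO was 2.56 in the first and 0.985 in the last 5 Mb, and TDG control 2.91 and 1.58. That ratio was 0.909 and 0.988 for PKCi, 0.901 and 0.977 for SRCi, and 0.422 and 1.72 for TDG KD. TDG KD covered 12.4% of the first and 50.3% of the last 5 Mb, serum 23.1% and 45.9%, and DNMT1 control 30.7% and 53.4%, with the rest between these values in the 3 lists. TKO control, at 15.3% and 21.5%, PKCi, at 76.9% and 83.5%, and SRCi, at 77.7% and 84.4%, were less far apart. TKO covered 1.02% of the first and 0.392% of the last 5 Mb, TDG control 0.796% and 0.434%, and DNMT1 KO 4.27% and 3.62%. The 2i side was higher at the telomere end in the lists with PKCi, at 0.546% and 0.726%, and SRCi, at 0.654% and 0.869%, and lower there in the list with serum, at 5.49% and 5.23%.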

How the data were processed

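Per the submitters' processing notes, Bowtie2 2.0.6 and the mm9 build were used for the native H2A.X ChIP-seq reads. The domain caller, its settings and any depth scaling are not stated in these sources. The authors deposited 6 lists of domains on a 1 kb grid, each with a mark for the enriched library and 2 score columns without a stated unit; the second score was not used in the text. The first library of a list was taken from the order in its name, so every direction rests on that order. Depth is unknown, so no floor was computed.

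Domains were turned into 1 kb bins with Python 3.11.15 and NumPy 2.4.6, and Wilson intervals came from SciPy 1.17.1. Clipping, coverage and member counts were recovered in 20 of 20 simulated lists. No test was run between conditions or over regions. Alternatives were windows of 2 and 10 Mb, leaving out the first 100 kb, merging within 10 kb and leaving out each chromosome. Another left out empty blocks (score within 0.05 of 0 in a list that names 2i). A further one kept the 50% of each side's domains that score most toward it, the lowest for a list's second library. For serum, PKCi and SRCi these include domains that run in from the placeholder. The listed scores of those that reach the window lie nearer to 0 than their side's median in the rest. Whether the placeholder enters the score is not stated. Named stretches were the 3 longest per side, those at the first base, those shared by 4 or more lists and the extreme chromosomes. The most extreme scores, the first 1 Mb and chromosome 14 were chosen after their values were seen. The window and these descriptions were chosen with earlier results of these data known. Genes and sequences are not given, since the reference tables are on another build.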

Additional observations from a re-analysis of the deposited data

How the results depend on the processing

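The ratio of window to rest kept its side of 1 under every alternative but the 10 Mb window for DNMT1 KO, at 0.844. Merging within 10 kb changed no count of domains by over 1.5 times, and leaving out empty blocks moved no ratio beyond its interval. Keeping 50% of each side's domains lowered counts by construction. The values that follow include those that moved by more than the counting interval, which is narrow, and the cause was not tested. Of the ratios without 1 chromosome, 79 of the whole window and 64 of the first 1 Mb stayed within it, and 113 and 32 did not. No paired analysis was possible because there was a single library for every condition. What depth limits cannot be said, since the lists do not give it.

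With the first 2 Mb the ratio of the window was 2.04 for DNMT1 KO, 0.568 for DNMT1 control, 1.45 for 2i over serum, 0.681 for serum over 2i, 0.881 for PKCi over 2i, 3.82 for 2i over PKCi, 0.871 for SRCi over 2i, 4.49 for 2i over SRCi, 0.500 for TDG KD, 6.30 for TDG control, 6.10 for TKO and 0.626 for TKO control. With the first 10 Mb it was 0.725 for DNMT1 control, 0.707 for serum over 2i, 0.939 for PKCi over 2i, 1.42 for 2i over PKCi, 0.931 for SRCi over 2i, 1.43 for 2i over SRCi, 0.456 for TDG KD, 2.36 for TDG control, 3.51 for TKO and 0.793 for TKO control. Without the first 100 kb it was 1.08 for DNMT1 KO, 0.680 for DNMT1 control, 1.05 for 2i over serum, 0.919 for PKCi over 2i, 1.01 for 2i over PKCi, 0.910 for SRCi over 2i, 1.15 for 2i over SRCi, 1.70 for TDG control, 1.64 for TKO and 0.675 for TKO control. With the 50% of domains that score most toward their side it was 1.26 for DNMT1 KO, 0.573 for DNMT1 control and 1.86 for 2i over serum. It was then 0.389 for serum over 2i, 0.706 for PKCi over 2i, 3.38 for 2i over PKCi and 0.781 for SRCi over 2i. For TDG KD it was 0.564, for TDG control 3.31, for TKO 3.68 and for TKO control 0.980. Leaving out each chromosome in turn gave 1.05 to 1.25 for DNMT1 KO, 0.633 to 0.721 for DNMT1 control, 1.01 to 1.17 for 2i over serum, 0.619 to 0.747 for serum over 2i, 0.894 to 0.966 for PKCi over 2i, 1.47 to 2.22 for 2i over PKCi, 0.887 to 0.957 for SRCi over 2i, 1.73 to 2.85 for 2i over SRCi, 0.270 to 0.462 for TDG KD, 2.39 to 3.13 for TDG control, 2.06 to 2.94 for TKO and 0.580 to 0.710 for TKO control. For the first 1 Mb the ratio to the rest without the first 100 kb was 2.49 for DNMT1 KO, 3.26 for 2i over PKCi, 1.74 for 2i over serum, 3.51 for 2i over SRCi, 6.36 for TDG control and 7.18 for TKO. With the 50% that score most toward their side it was 4.53 for DNMT1 KO, 13.2 for 2i over PKCi and 4.94 for 2i over serum. It was then 7.63 for 2i over SRCi, 13.1 for TDG control and 18.1 for TKO. Leaving out each chromosome gave 2.59 to 3.09 for DNMT1 KO, 5.27 to 8.68 for 2i over PKCi, 1.74 to 2.18 for 2i over serum, 6.09 to 11.1 for 2i over SRCi, 9.52 to 12.9 for TDG control and 8.54 to 13.3 for TKO.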
